A study of Mus musculus with 21 samples.

Results

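Interferon-stimulated genes are the genes that a cell switches on when it senses an interferon. The 39 described here were a list of mouse genes given by name, set with earlier results of these livers known, and all 39 were found among the 52636 gene identifiers of the count table and passed the filter on low counts. They comprise 4 transcription factors of the pathway (Irf1, Irf7, Irf9 and Stat2), 4 nucleic acid sensors, 9 effectors that act on RNA, 6 other antiviral effectors, 6 members of the ISG15 system and other modifiers, 6 interferon-gamma-inducible GTPases and 4 other genes.

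Type I interferons (alpha and beta) and type III interferons (lambda) bind their receptors, activate the kinases Jak1 and Tyk2 and lead to a complex that holds Stat2 and Irf9 and binds the interferon-stimulated response element of target genes. Interferon gamma, the type II interferon made by T and natural killer cells, acts through Jak1 and Jak2 on genes that carry the gamma-activated sequence. Hepatocytes, macrophages and endothelium of the liver all carry interferon receptors, and the products of the target genes bind viral RNA, degrade RNA, block viral budding, attach ISG15 to proteins or feed back on the signal.

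The samples were livers of wild type mice in 3 groups: 5 livers taken after 8 weeks on normal chow, labelled week 0, 8 livers taken after 8 weeks on CDA-HFD and 8 livers taken after 16 weeks on CDA-HFD. CDA-HFD, the diet of the series on NASH liver fibrosis, is a choline-deficient, amino-acid-defined high-fat diet. Chow livers were sampled at 1 time only, so 16 weeks of diet and 8 more weeks of age cannot be told apart. The labels give no strain, sex or batch and do not say whether each liver came from a separate animal, so p-values measure the spread between these libraries.

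Stranded total RNA libraries held 33522456 to 42586342 counts in chow livers, 29037525 to 45868842 in 8-week livers and 35254088 to 48901145 in 16-week livers. Levels are given as CPM, counts scaled to a common sequencing depth, with library sizes adjusted by edgeR's TMM method. The libraries carried liver RNA: 8 hepatocyte markers, Alb among them, summed to 74720 to 367200 CPM over the 21 livers. Several libraries also held transcripts of other tissues. In 8-week replicate 3, 10 squamous epithelium markers summed to 2042 CPM and 8 skeletal muscle markers to 2597 CPM, against 0.869 to 1.18 CPM and 0.753 to 409 CPM in chow livers. In 8-week replicates 4 and 5, 9 exocrine pancreas markers summed to 8545 and 400.4 CPM, against 16.9 to 31.5 CPM in chow livers. Squamous markers summed to 303.6 CPM in 8-week replicate 6 and to 275 CPM, 85.7 CPM and 167 CPM in 16-week replicates 1, 4 and 7. The diet livers other than these 7 had squamous sums of 2.71 to 22.7 CPM, still above all chow livers. Skeletal muscle markers summed to 409 CPM in chow replicate 5, against at most 13.9 CPM in the other chow livers. They summed to 355.5 CPM in 8-week replicate 6 and to 418.9, 404.2 and 241.3 CPM in 16-week replicates 1, 4 and 7. The diet livers other than these and 8-week replicate 3 had muscle sums of 1.06 to 37.6 CPM. For some of the calls and named values that 8-week replicate 3 moved, the value without it is given.

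More of the interferon-stimulated genes were higher on the diet than lower, at both times. At 8 weeks of CDA-HFD against chow, 26 of 39 passed the test as higher and 1, Eif2ak2, as lower (edgeR quasi-likelihood test, Benjamini-Hochberg adjusted p under 0.05 over 17104 genes). Over all genes tested, 30.8% passed as higher and 20.5% as lower in that comparison. In 19 of 39, every 8-week liver lay above every chow liver, which held for 15.3% of all genes tested. The median change was 0.98 on the log2 scale, against 0.16 for all genes tested.

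At 16 weeks against chow, 25 of 39 passed as higher and 2, Parp9 and Iigp1, as lower, where 29.4% of all genes tested passed as higher and 22.5% as lower. Every 16-week liver lay above every chow liver in 24 of 39, against 27.2% of all genes tested, and the median change was 0.90 against 0.03 for all genes. The comparisons share the chow livers, and 23 genes passed as higher in both. Scaling to total counts alone, without TMM factors, moved the median of all genes to 0.28 at 8 weeks and 0.56 at 16 weeks. The members then passed as 27 higher and 0 lower at 8 weeks and as 32 higher and 0 lower at 16 weeks. Of all calls under that scaling, 78.3% and 89.5% were higher, against 60.1% and 56.6% with TMM. These are shares of the genes that passed, not of all genes tested, so they differ in kind from the 30.8% and 29.4%. The medians of the members under that scaling were 0.94 at 8 weeks and 1.42 at 16 weeks. Leaving out 8-week replicate 3, the 8-week count was 29 higher and 1 lower. Without the 7 libraries highest in squamous or pancreas transcripts it was 29 higher and 0 lower. For total-count scaling and these fits, the share of all genes tested that passed as higher is not given here. Their member counts therefore have no like share to be read against. Over the fits that each left out 1 library, 7563 to 9748 of all genes passed at 8 weeks, higher and lower together.

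**Figure D1:**
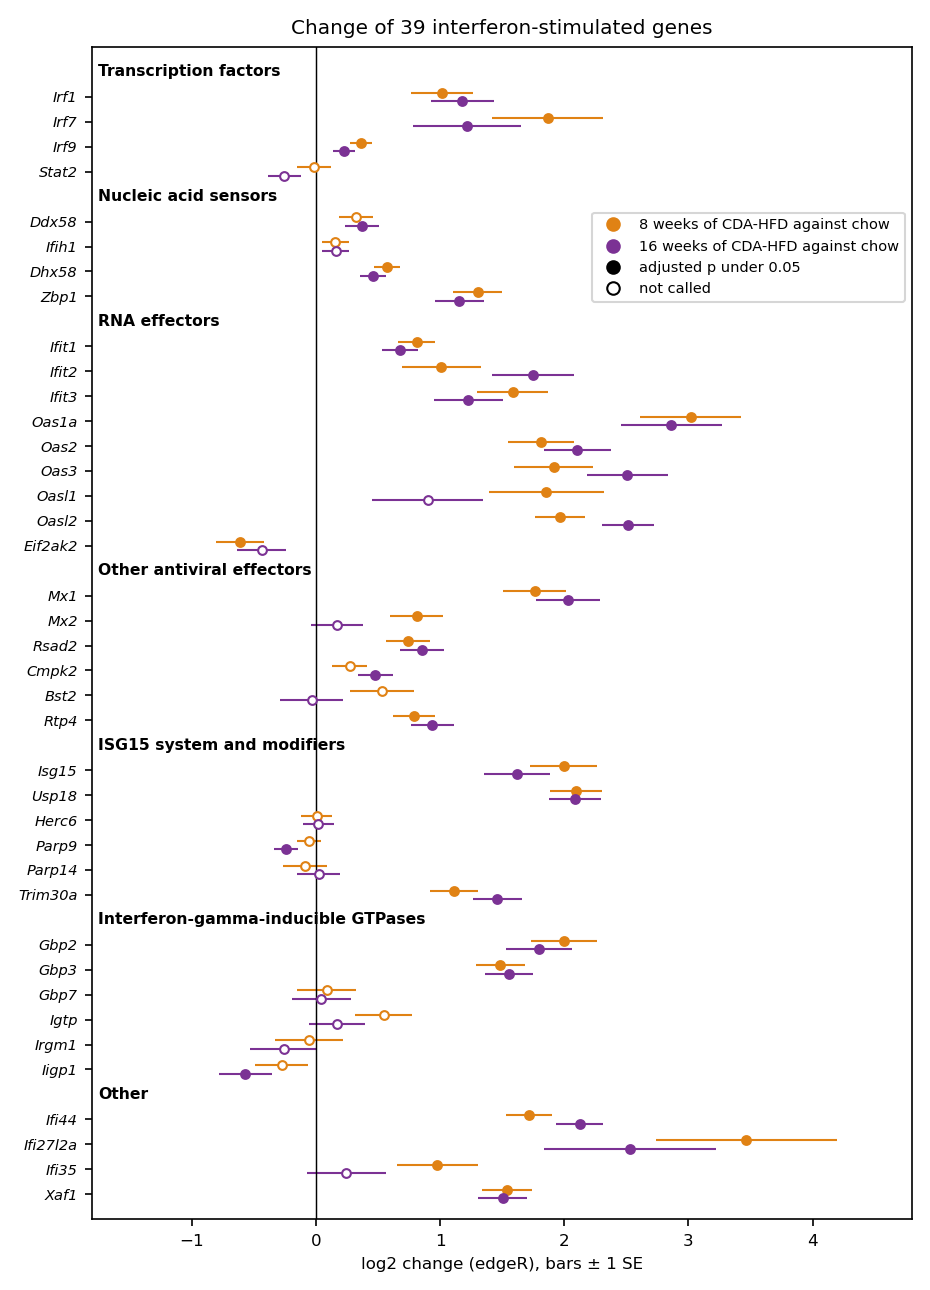
Log2 change of each of the 39 genes at 8 weeks (orange) and 16 weeks (purple) of CDA-HFD against chow, with bars of 1 standard error, grouped by role; filled points had an adjusted p under 0.05. Oas1a and Ifi27l2a lie farthest to the right at both times, and Stat2, Eif2ak2, Parp9, Irgm1 and Iigp1 lie left of 0 at both times. With total-count scaling the 16-week values of Stat2, Eif2ak2, Parp9 and Irgm1 were 0.28, 0.10, 0.28 and 0.27.

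Among the transcription factors, Irf7, Irf1 and Irf9 rose at both times, and the RNA for Stat2 did not pass the test. Irf7, the factor that amplifies type I interferon output, had 29.2, 40.2, 41.8, 35.1 and 43.9 CPM in the chow livers. It ranged over 69.2 to 525 CPM with a median of 78.0 in 8-week livers, and over 64.8 to 129 CPM with a median of 79.9 in 16-week livers. Every liver on the diet lay above every chow liver. The changes were 1.87 ± 0.45 (SE, log2) at 8 weeks, adjusted p = 0.00189, and 1.22 ± 0.44 at 16 weeks, adjusted p = 0.0234. Without 8-week replicate 3, which held the 525 CPM, the 8-week change was 1.13, adjusted p = 3.34e-05. Without chow replicate 1 the 16-week call was lost, at 1.14, adjusted p = 0.0566.

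Irf1, a factor that responds most strongly to interferon gamma, averaged 30.8 ± 5.74 CPM in chow livers, 62.2 ± 22.7 in 8-week livers and 69.8 ± 7.76 in 16-week livers (SD, n = 5, 8 and 8). It changed by 1.02 at 8 weeks, adjusted p = 0.00229, and by 1.18 at 16 weeks, adjusted p = 0.000488. 8-week replicate 3, at 16.7 CPM, lay below all chow livers. Irf9, a DNA-binding partner of Stat2, changed little, by 0.36 at 8 weeks and 0.23 at 16 weeks. The 16-week call for Irf9 was lost in 11 of 30 alternative settings, among them leaving out chow replicate 1, 3 or 4, 8-week replicate 8 or 16-week replicate 2, 4, 5, 7 or 8, with an adjusted p of up to 0.108. Stat2 had log2 changes of -0.02 ± 0.14 and -0.25 ± 0.14.

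Of the 4 nucleic acid sensors, 2 rose at 8 weeks and 3 at 16 weeks. These are 50% and 75% of a short list, beside 30.8% and 29.4% of all genes tested. Zbp1, which binds Z-form nucleic acids and can start necroptosis, had the largest change of the 4, at 1.30 ± 0.20 at 8 weeks and 1.15 ± 0.20 at 16 weeks, adjusted p = 2.25e-05 and 5.02e-05. Its levels were 7.24, 9.24, 11.9, 9.24 and 13.2 CPM in chow livers, 16.8 to 32.3 in 8-week livers and 15.7 to 31.2 in 16-week livers, so the diet livers did not overlap the chow livers. Dhx58, the regulator of the RIG-I family also known as LGP2, changed by 0.57 and 0.46. Ddx58, which encodes RIG-I, changed by 0.32 at 8 weeks, adjusted p = 0.0563, and by 0.37 at 16 weeks, adjusted p = 0.0289. The 8-week change passed without 8-week replicate 2, 3 or 4 (adjusted p = 0.0269, 0.0156 and 0.0434), and the 16-week call was lost without chow replicate 1, 3 or 4 or 16-week replicate 8 (adjusted p = 0.0854, 0.0581, 0.0531 and 0.0567). Ifih1, which encodes the RNA sensor MDA5, changed by 0.16 ± 0.11 at both times, adjusted p = 0.232 and 0.224.

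Of the 9 RNA effectors, 8 were higher and 1 lower at 8 weeks, and 7 were higher at 16 weeks. The shares passing as higher were 88.9% and 77.8%, beside 30.8% and 29.4% of all genes tested. Oas1a, an enzyme that makes 2',5'-oligoadenylate to activate RNase L, had 1.10, 1.58, 2.09, 1.59 and 2.63 CPM in chow livers. It had 7.52 to 43.4 CPM with a median of 9.86 in 8-week livers and 9.61 to 17.7 CPM with a median of 13.0 in 16-week livers. The lowest diet liver was above the highest chow liver. The change was 3.02 ± 0.41 at 8 weeks, adjusted p = 4.93e-06, and 2.86 ± 0.40 at 16 weeks, adjusted p = 4.7e-06; without 8-week replicate 3, the liver with 43.4 CPM, the 8-week change was 2.54. Its near-identical neighbour Oas1g moved alongside it, by 3.19 and 3.02, and by 2.65 at 8 weeks without 8-week replicate 3. How the authors' counting assigned reads shared by the 2 genes is not given in the sources used here.

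Oas2 and Oas3, larger synthetases of the same family, rose by 1.81 and 1.91 at 8 weeks and by 2.10 and 2.51 at 16 weeks. Oasl2, a related protein with ubiquitin-like domains, changed by 1.97 ± 0.20 and 2.51 ± 0.21, adjusted p = 1.58e-07 and 4.71e-09. It had 4.82, 5.51, 6.85, 5.94 and 8.05 CPM in chow livers, 18.0 to 29.6 CPM in 8-week livers and 27.6 to 62.8 CPM in 16-week livers. Oasl1, which in mouse restrains translation of Irf7, averaged 14.4 ± 2.05 CPM in chow livers, 52.3 ± 64.4 in 8-week livers and 26.9 ± 4.75 in 16-week livers. Replicate 3 had 211 CPM, against 23.9 to 35.8 in the other 7 8-week livers. The 8-week change of Oasl1 was 1.86 with it, adjusted p = 0.00252, and 1.03 without it, adjusted p = 3.38e-06. The 16-week change of 0.90 did not pass with it, adjusted p = 0.0964, and passed without it at the same size, adjusted p = 7.56e-06.

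The Ifit genes, whose proteins bind viral RNA lacking host cap marks, rose at both times. Ifit1 changed by 0.81 and 0.68, Ifit2 by 1.01 and 1.75 and Ifit3 by 1.58 and 1.23. Without 8-week replicate 3 the 8-week change of Ifit3 was 1.24. Ifit3 shares much of its sequence with Ifit3b, which changed by 1.09 and 1.15, so reads may be split between them. Eif2ak2, the gene of the RNA-activated kinase PKR, went the other way. It had 19.2, 23.2, 18.6, 22 and 22.9 CPM in chow livers, 7.37 to 18.9 CPM with a median of 14.9 in 8-week livers and 10.8 to 22.8 CPM with a median of 14.7 in 16-week livers. It fell by 0.61 ± 0.20 on the log2 scale at 8 weeks, adjusted p = 0.014, with 8-week livers overlapping chow livers only at the upper end. That call was lost with total-count scaling, at a change of -0.42, and without the 7 libraries highest in squamous or pancreas transcripts. The 16-week value was -0.43, adjusted p = 0.07, and was 0.10 with total-count scaling. It passed as lower without 8-week replicate 3 or 16-week replicate 8, adjusted p = 0.0202 and 0.0253.

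Of the other antiviral effectors, 4 of 6 rose at each time, or 66.7%, beside 30.8% and 29.4% of all genes tested. Mx1, a dynamin-like GTPase that blocks influenza virus, had the lowest level per kilobase of exon of the 39 genes in chow livers, 0.286 CPM per kilobase. It had 0.662, 1.004, 0.978, 1.10 and 1.67 CPM in chow livers, 2.59 to 5.59 CPM in 8-week livers and 3.19 to 7.35 CPM in 16-week livers, with no overlap, and changed by 1.76 ± 0.25 and 2.03 ± 0.26, adjusted p = 1.07e-05 and 1.11e-06. Rsad2, which encodes viperin, changed by 0.74 and 0.86, and Rtp4 by 0.79 and 0.94. Mx2, another dynamin-like gene that the GENCODE annotation lists as a polymorphic pseudogene, changed by 0.81 at 8 weeks, adjusted p = 0.00398, and by 0.17 at 16 weeks, adjusted p = 0.528. Cmpk2, the neighbour of Rsad2 on chromosome 12, passed at 16 weeks, at 0.48, adjusted p = 0.00729. At 8 weeks its change of 0.27 did not pass, adjusted p = 0.11, and passed without 8-week replicate 3 at 0.31, adjusted p = 0.0416. The difference between those times was 0.21 and did not pass, adjusted p = 0.229.

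Bst2, which encodes the virus tether tetherin, had the highest level per kilobase of the 39 genes in chow livers, 153 CPM per kilobase, more than Iigp1 at 64.3, Igtp at 18.4 and Irgm1 at 15.4. It had 119, 141, 147, 144 and 140 CPM in chow livers, 113 to 419 CPM with a median of 160 in 8-week livers and 107 to 181 CPM with a median of 138 in 16-week livers. The groups overlapped. Its changes of 0.53 ± 0.26 and -0.03 ± 0.26 did not pass, adjusted p = 0.0901 and 0.925, and the 8-week value without replicate 3, the liver with 419 CPM, was 0.28. Without 8-week replicate 6 it passed, at 0.62, adjusted p = 0.0473.

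Of the ISG15 system and other modifiers, 3 of 6 rose at each time, Isg15, Usp18 and Trim30a. That is 50% of a short list, beside 30.8% and 29.4% of all genes tested. Isg15, the ubiquitin-like protein attached to other proteins, had 7.54, 7.31, 7.42, 5.59 and 8.00 CPM in chow livers, 17.4 to 54.8 CPM with a median of 23.9 in 8-week livers and 15.6 to 29.3 CPM with a median of 21.3 in 16-week livers. Usp18, the protease that removes ISG15 and dampens type I receptor signalling, had 8.09, 9.75, 7.35, 7.18 and 7.97 CPM in chow livers, 21.3 to 54.7 CPM in 8-week livers and 28.4 to 43.0 CPM in 16-week livers. Neither gene overlapped between diet and chow livers. Isg15 changed by 1.996 ± 0.27 and 1.62 ± 0.27, adjusted p = 5.37e-06 and 3.03e-05, and Usp18 by 2.10 ± 0.21 and 2.09 ± 0.21, adjusted p = 1e-07 and 5.15e-08.

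Trim30a, which in mouse restrains Toll-like receptor signalling, changed by 1.11 and 1.46. Herc6, the main mouse ligase for ISG15, and Parp14, an ADP-ribosyltransferase, did not pass, with changes between -0.09 and 0.02. Parp9, the partner of the ubiquitin ligase Dtx3l, had 52.0, 72.4, 66.4, 68.9 and 73.0 CPM in chow livers, 54.4 to 72.2 CPM in 8-week livers and 51.7 to 60.3 CPM in 16-week livers. Its 16-week change of -0.24 ± 0.10 passed, adjusted p = 0.0418, but was 0.28 with total-count scaling, and the call was lost in 13 of the other 29 alternative settings, 11 of which left out 1 chow or 16-week liver.

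The interferon-gamma-inducible GTPases, which attack the membranes around intracellular pathogens, divided by gene, and 2 of 6, Gbp2 and Gbp3, rose at each time, a share of 33.3% that is near the 30.8% and 29.4% of all genes tested. Gbp2 had 7.54, 7.23, 6.31, 5.76 and 7.34 CPM in chow livers, 14.0 to 48.4 CPM with a median of 21.9 in 8-week livers and 17.2 to 29.2 CPM with a median of 24.4 in 16-week livers. Gbp3 ranged over 5.87 to 7.18 CPM in chow livers, 7.58 to 26.0 in 8-week livers and 15.6 to 24.1 in 16-week livers. Neither overlapped between diet and chow livers. Gbp2 changed by 1.9995 ± 0.27 and 1.80 ± 0.26, adjusted p = 4.1e-06 and 7.49e-06, and Gbp3 by 1.49 ± 0.20 and 1.55 ± 0.20, adjusted p = 3.58e-06 and 1.1e-06. Gbp7, in the same cluster on chromosome 3, had changes of 0.09 ± 0.24 and 0.04 ± 0.24, adjusted p = 0.766 and 0.895.

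The 3 immunity-related GTPases listed followed Bst2 by level per kilobase in chow livers. In the fit of all livers 0 of 3 passed as higher at either time, beside 30.8% and 29.4% of all genes tested. Iigp1 had 319.6, 394, 402, 352 and 405 CPM in chow livers, 144 to 389 CPM with a median of 367 in 8-week livers and 152 to 329 CPM with a median of 273.5 in 16-week livers. It changed by -0.27 ± 0.22 at 8 weeks, adjusted p = 0.288, and fell by 0.57 ± 0.21 at 16 weeks, adjusted p = 0.0312, a call lost in 8 of 30 alternative settings, among them leaving out chow replicate 2, 3 or 5 or 16-week replicate 2, 3 or 8, with a value of -0.05 under total-count scaling. Igtp, which shares 8% of its exon bases with Irgm2 on the same strand, changed by 0.55 ± 0.23 at 8 weeks, adjusted p = 0.0527, and passed without replicate 3 at 0.65, adjusted p = 0.00358, and without replicate 5 or 8, adjusted p = 0.0494 and 0.0456. Irgm1 changed by -0.06 ± 0.27 and -0.26 ± 0.27, adjusted p = 0.872 and 0.449, and its 16-week value was 0.27 with total-count scaling. That value passed as lower without 8-week replicate 3, adjusted p = 0.0296, at the size of -0.27.

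All 4 remaining genes passed as higher at 8 weeks, beside 30.8% of all genes tested. Ifi27l2a, a short gene with 463 bases of exon, had 4.12, 3.30, 7.66, 2.14 and 8.27 CPM in chow livers, 11.9 to 281 CPM with a median of 22.4 in 8-week livers and 21.3 to 43.5 CPM with a median of 25.8 in 16-week livers. The diet livers lay above the chow livers. Its change of 3.47 ± 0.73 at 8 weeks, adjusted p = 0.000604, was the largest of the 39, and was 2.25 without replicate 3, the liver with 281 CPM, where Oas1a at 2.54 was larger; at 16 weeks it was 2.53 ± 0.69, adjusted p = 0.0042. Ifi44 changed by 1.72 and 2.13, and Xaf1, which promotes cell death, by 1.54 and 1.503. Ifi35 passed at 8 weeks, at 0.98 ± 0.33, adjusted p = 0.0175, and at 0.51 without replicate 3. It did not pass at 16 weeks, at 0.25, adjusted p = 0.549.

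**Figure D2:**
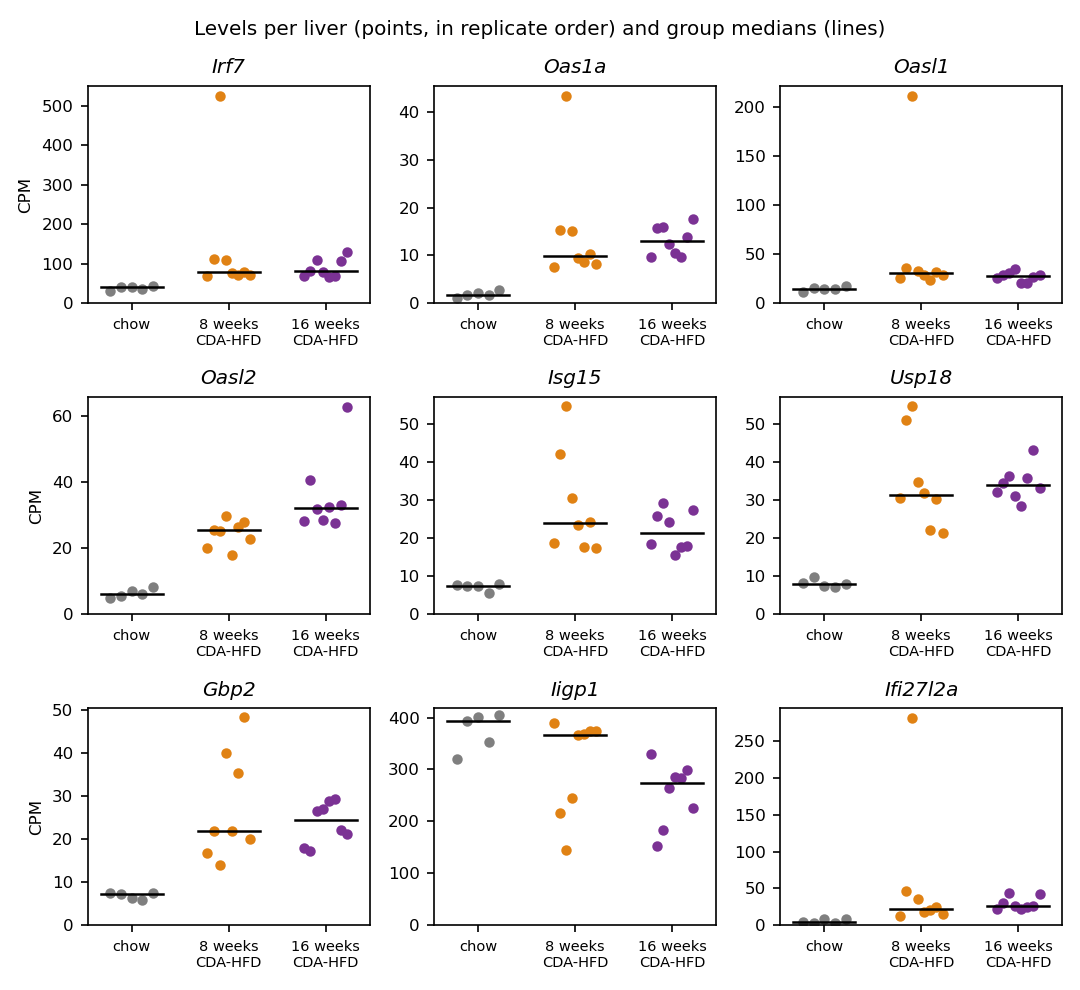
CPM of 9 genes in each liver, in order of replicate number within chow, 8-week and 16-week groups, with the group median as a line. 8-week replicate 3 is the isolated high point for Irf7, Oas1a, Oasl1 and Ifi27l2a, 16-week replicate 8 is the isolated high point for Oasl2 at 62.8 CPM, and Iigp1 is the 1 gene shown whose 8-week and 16-week medians lie below its chow median.

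RefSeq promoter windows of the GRCm38.p6 build, reaching from 250 bases before to 50 bases after a gene start, were on hand for 28 of the 39 genes. The response element was searched as TTTC and TTTC with 2 bases of any kind between them, or GAAA and GAAA likewise for the other strand, and overlapping matches were kept. It lay in the windows of 17 of 28, against 3.99% of 27025 genes. A stricter form, GAAA and GAAACT with 2 bases of any kind between them on either strand, lay in 10 of 28, against 0.303% of genes. The gamma-activated sequence TTCNNNGAA, which reads the same on both strands, lay in 8 of 28, against 9.55%. The stretches below show the match, in capitals, for genes that rose at both times (Ifit1, Isg15, Oas1a), for the 3 guanylate-binding protein genes of chromosome 3 that differed in response, and for Bst2, which has the match and did not pass the test. The last is the gamma-activated sequence of Irf1. All are upstream of the RefSeq start and written 5′ to 3′ on the strand of the gene.
Ifit1, chr19:34640765-34640823, plus strand: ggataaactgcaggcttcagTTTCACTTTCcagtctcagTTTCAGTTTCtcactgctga
Isg15, chr4:156200865-156200916, minus strand: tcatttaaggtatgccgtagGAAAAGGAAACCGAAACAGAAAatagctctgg
Oas1a, chr5:120907526-120907565, minus strand: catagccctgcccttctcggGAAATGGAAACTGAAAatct
Gbp2, chr3:142620584-142620623, plus strand: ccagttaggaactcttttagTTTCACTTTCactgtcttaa
Gbp3, chr3:142559979-142560024, plus strand: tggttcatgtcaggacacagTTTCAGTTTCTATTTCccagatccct
Gbp7, chr3:142530263-142530302, plus strand: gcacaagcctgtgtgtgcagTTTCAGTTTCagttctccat
Bst2, chr8:71537577-71537622, minus strand: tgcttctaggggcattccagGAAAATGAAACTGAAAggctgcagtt
Irf1, chr11:53769904-53769942, plus strand: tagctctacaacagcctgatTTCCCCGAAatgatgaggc

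Genes that rose and genes that did not pass both held the match. Of the 17 genes with the response element, 9 passed as higher at 8 weeks, with a median change of 0.74. Of the 11 without it in the window, 9 passed as higher, with a median change of 1.02. At 16 weeks 10 of the 17 and 8 of the 11 passed as higher, with median changes of 0.68 and 1.18. Over all genes tested, 30.8% passed as higher at 8 weeks and 29.4% at 16 weeks. In Ifih1, Ddx58 and Eif2ak2 the match lay only after the gene start. At 8 weeks Ifih1 and Ddx58 did not pass and Eif2ak2 passed as lower. In the GTPase cluster, the match began 59 bases before the start of Gbp2, 45 bases before that of Gbp3 and 53 bases before that of Gbp7, and the first 2 genes rose while Gbp7 had a change of 0.09.

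Between the diet times, most of the 39 genes gave no call. At 16 against 8 weeks, 1 gene passed as higher and 1 as lower, 37 did not pass, and the median change was -0.05, against 0.00 for all genes tested, of which 10.6% passed as higher and 11% as lower. Oasl2 had 27.6 to 62.8 CPM with a median of 32.1 in 16-week livers and 18.0 to 29.6 CPM with a median of 25.3 in 8-week livers, a change of 0.55 ± 0.16, adjusted p = 0.0231. Without 16-week replicate 8, the liver with 62.8 CPM, it was 0.38, adjusted p = 0.0531. Mx2 had 3.80 to 5.89 CPM with a median of 4.497 in 16-week livers and 4.43 to 13.8 CPM with a median of 6.91 in 8-week livers, and fell by 0.64 ± 0.18, adjusted p = 0.0188. Without 8-week replicate 3, the liver with 13.8 CPM, its change was -0.45, adjusted p = 0.019. The call was lost with total-count scaling, at -0.16, adjusted p = 0.381, and without 8-week replicates 3, 4 and 5.

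How many genes passed between the diet times depended on single libraries. Over the 21 fits that each left out 1 library, 1 to 8 of the 39 passed, while 2248 to 5132 of all genes did. In the fit of all livers, 1814 of 17104 genes passed as higher and 1889 as lower. Without 8-week replicate 3, 2 passed as higher, Oasl2 at 0.56 and Ifit2 at 0.59, and 3 as lower, Mx2 at -0.45, Igtp at -0.48 and Irgm1 at -0.36. Without 8-week replicate 6, 4 passed as higher (Ifit2, Oas3, Oasl2 and Ifi44) and 4 as lower (Oasl1, Mx2, Bst2 and Ifi35). With total-count scaling 8 passed as higher and 0 as lower, beside 94.8% of all calls being higher, against 49.0% with TMM.

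**Figure D3:**
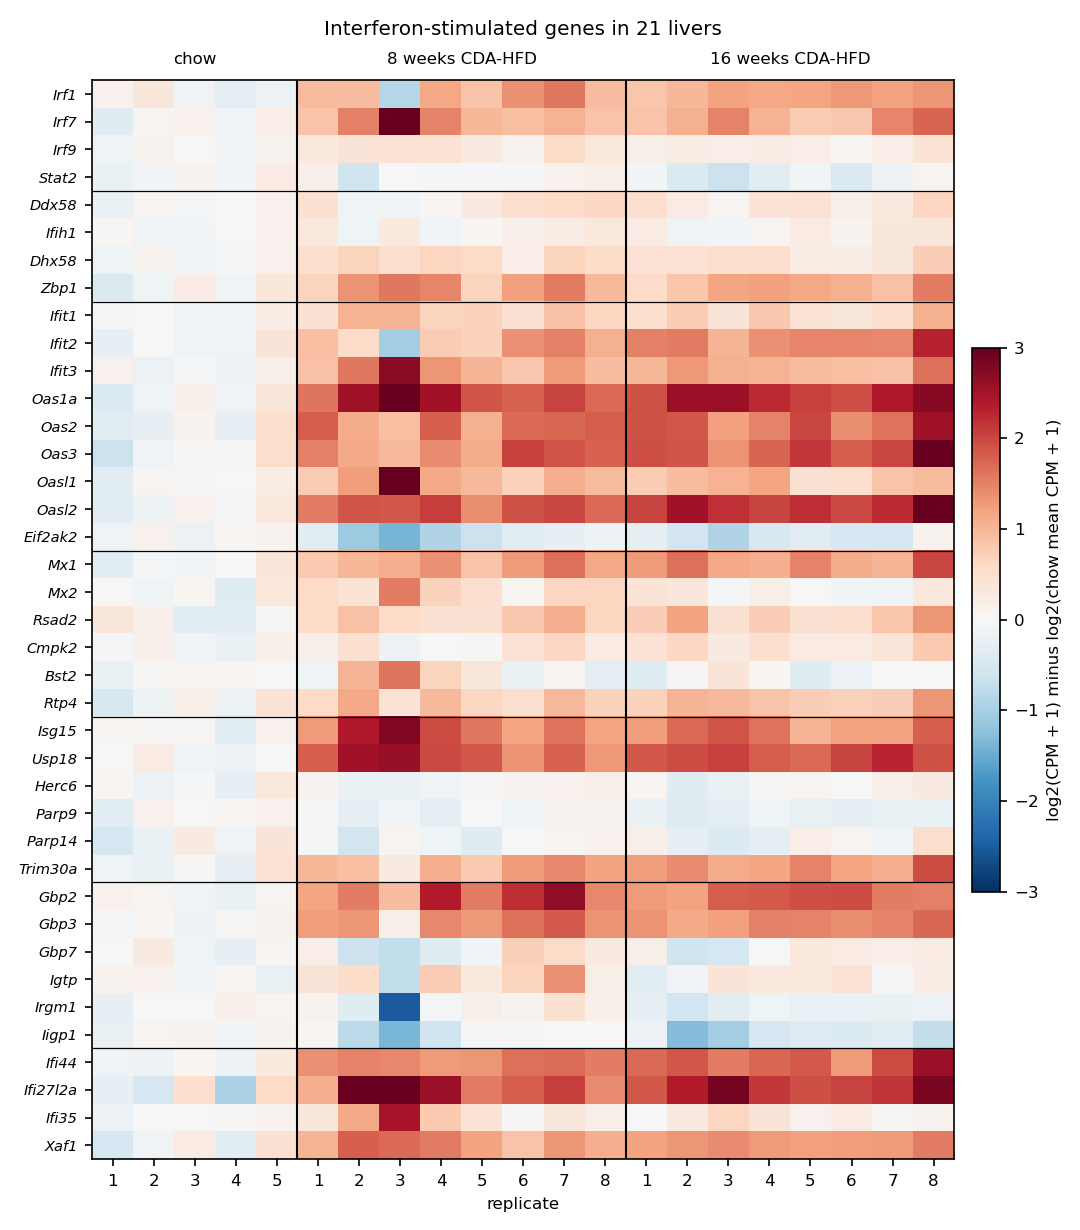
Each of the 39 genes in each of the 21 livers, as log2(CPM + 1) minus log2 of the chow mean CPM + 1, with lines between role groups and diet groups. The OAS, ISG15 and Ifi27l2a rows are red in every liver on the diet, and the 8-week replicate 3 column holds both the deepest red and the deepest blue cells of its group. Every 16-week column is red in most rows, and replicate 8 holds the highest value of that group for 26 of the 39 genes.

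Livers of 1 diet group differed from each other. 16-week replicate 8 held the highest value of its group for 26 of the 39 genes and the lowest for 0, with a median of 1.35 times the median of the other 7 livers. For Oas3 it had 25.04 CPM against 6.97 to 12.6 in the other 7, and for Ifi44 25.8 CPM against 9.82 to 16.45. Its T and natural killer cell markers summed to 23.7 CPM and its macrophage markers to 2418 CPM, within the 17.7 to 55.7 and 1810 to 2830 CPM of the group. It had the highest neutrophil marker sum of its group, at 39.6 CPM against 21.2 to 38.0 CPM, and the lowest red blood cell marker sum, at 88.2 CPM against 112.6 to 206 CPM. The part of these in its values was not tested. In the chow group, replicate 5 held the highest value for 28 of 39 and replicate 1 the lowest for 21 of 39. Chow replicate 5 also had the highest sums of its group for macrophage markers, at 496 CPM against 364 to 404 CPM, T and natural killer cell markers, at 10.6 CPM against 8.203 to 9.88 CPM, and plasmacytoid dendritic cell markers, at 30.6 CPM against 21.95 to 24.2 CPM. The same held for dendritic cell, stellate cell, sinusoidal endothelium and fat markers, for neutrophil markers, at 24.4 CPM, B and plasma cell markers, at 23.8 CPM, and skeletal muscle markers, at 409 CPM. The part of these in its higher interferon-stimulated genes was not tested.

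8-week replicate 3 stood apart in both directions. It held the highest value of its group for 11 of the 39 genes and the lowest for 14. Irf7 had 525 CPM there against 69.2 to 111 in the other 7 livers, and Ifi27l2a 281 against 11.9 to 46.4. Irgm1 had 14.95 CPM there against 69.7 to 123, and Irf1 16.7 against 56.1 to 94.7. Its levels ran with gene length across all genes tested. The genes were placed in 4 bins of about equal number by merged exon length. Relative to the median of the other 7 8-week livers, the median log2 ratio was 0.35 in the bin of the shortest genes (up to 2160 bases), 0.13 and -0.18 in the middle bins, and -0.65 in the bin of the longest (from 6171 bases). The same medians for 16-week replicate 8 ran from -0.08 to 0.13. Among the interferon-stimulated genes, the 8 in the shortest bin had a median ratio of 1.62 in 8-week replicate 3, the 10 and 15 in the middle bins 0.35 and -0.82, and the 6 in the longest -0.16. This library had the lowest TMM factor of the 21, at 0.4955. The part of length, of squamous or of muscle RNA in its values was not tested.

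**Figure D4:**
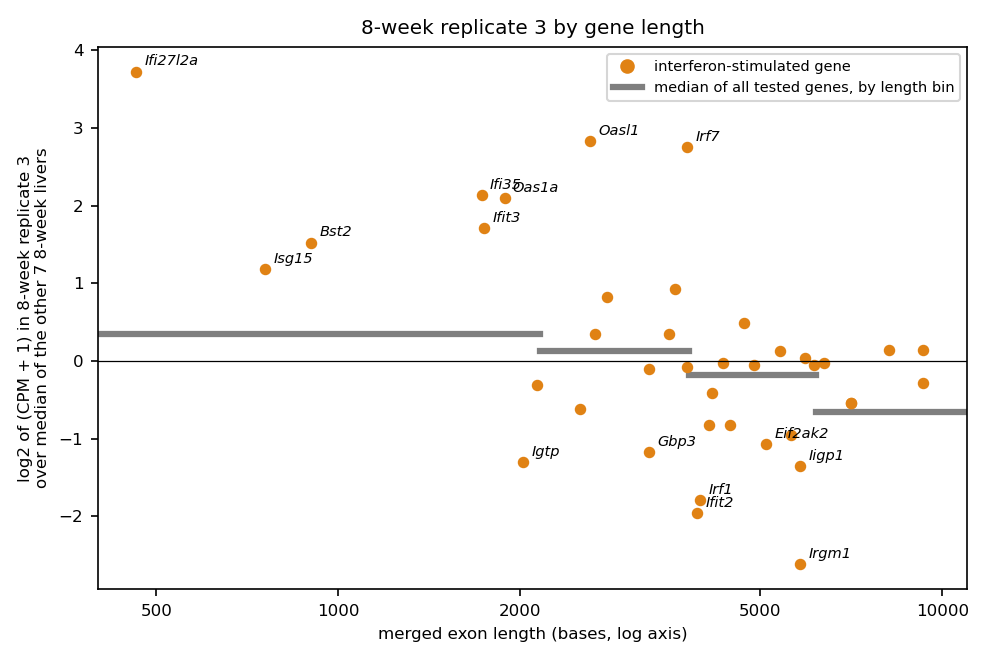
Log2 ratio of (CPM + 1) in 8-week replicate 3 to that of the median of the other 7 8-week livers for each of the 39 genes (points), against merged exon length on a log axis, with grey bars for the median of all tested genes in each length bin. The points above 1 are Ifi27l2a, Isg15, Bst2, Ifi35, Ifit3, Oas1a, Oasl1 and Irf7, and the lowest point is Irgm1.

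The highest Gbp2 and Igtp values at 8 weeks lay in replicates 7, 4 and 6. Gbp2 had 48.4, 39.9 and 35.5 CPM and Igtp 97.0, 64.1 and 59.6 CPM in those livers, while the other 5 had at most 22 CPM of Gbp2 and 54.8 CPM of Igtp. The same 3 livers had T and natural killer cell marker sums of 50.7, 44.7 and 44.4 CPM, where replicates 1, 2, 5 and 8 had 10.8 to 24.7 CPM. Replicate 3, with the highest sum of 75.7 CPM, had the lowest Gbp2 and Igtp of the group, at 14.0 and 21.7 CPM. At 16 weeks, the liver with the highest marker sum, replicate 6 at 55.7 CPM, also had the highest Gbp2 and Igtp, at 29.2 and 50.4 CPM. The other GTPases of the list did not all share that order. At 8 weeks Gbp7 had 26.7 and 24.0 CPM in replicates 6 and 7 and 12.0 CPM in replicate 4. Iigp1 was highest, at 389 CPM, in replicate 1, which had the lowest marker sum, 10.8 CPM. Iigp1 had 245 CPM in replicate 4. Each liver was also scored by the median log2 deviation of all listed interferon-stimulated genes from their group mean. The Pearson correlation of that score with the T and natural killer cell markers was 0.493 over all 8 8-week livers. It was 0.913 without replicate 3, and -0.316 over the 16-week livers. The 0.913 was the highest of the 15 marker lists in those 7 livers. Dendritic cell markers gave 0.775 there, stellate cell markers 0.64, skeletal muscle markers 0.617 and macrophage markers 0.593. Hepatocyte, red blood cell, sinusoidal endothelium and B and plasma cell markers gave -0.696 to -0.258. The part of T and natural killer cells in the GTPase levels was not tested.

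The RNA of the interferons themselves was close to or below detection. Of 21 interferon genes listed, 17 had no count in any library, which allows at most 0.0483 to 0.209 CPM per library from the 3 counts that a count of 0 permits. Trex1 and Ifi44l, of the inhibitor list and the list of further stimulated genes, also had 0 counts in all 21 libraries. How reads in overlapping or similar genes were counted is not given in the sources used here, so these limits hold only for reads that the counting kept. Ifnb1, interferon beta, had 2 counts over the 8 16-week livers and 0 in the other livers. Ifnk had 6 counts in 3 of the 8-week livers and 7 counts in 7 of the 16-week livers, and Ifnz had 12 counts in 4 of the 16-week livers. Ifng, interferon gamma, had 7 counts in 3 of 5 chow livers, 48 counts over 8 of 8 8-week livers and 64 counts over 8 of 8 16-week livers. Its median levels were 0.0579, 0.179 and 0.152 CPM at chow, 8 and 16 weeks, and it did not pass the filter for the test.

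Of 9 receptor and kinase genes, 4 passed as higher at each time: Ifngr1, Ifngr2, Ifnlr1 and Il10rb. That is 44.4%, beside 30.8% and 29.4% of all genes tested. The list medians were 0.14 and 0.18, against 0.16 and 0.03 for all genes. Ifnar1, a chain of the type I receptor, changed by 0.09 and 0.16, adjusted p = 0.385 and 0.139, and its 16-week change was 0.69 with total-count scaling. Ifngr1, the ligand-binding chain of the gamma receptor, changed by 1.05 ± 0.16 and 1.46 ± 0.16, and was higher at 16 than at 8 weeks by 0.40, adjusted p = 0.0383, a call lost without 8-week replicate 1 or 5 or 16-week replicate 2, 3, 5, 6 or 8, with an adjusted p of up to 0.0782. Ifnlr1, the specific chain of the type III receptor, was scarce, with 0.0579 to 0.294 CPM in chow livers, 0.278 to 0.966 in 8-week livers and 1.09 to 2.34 in 16-week livers. Its changes were 1.72 ± 0.40 and 3.38 ± 0.41, adjusted p = 0.00155 and 6.75e-07, and its 16-week livers lay above all 8-week livers, at a change of 1.66 ± 0.30, adjusted p = 0.000797. Il10rb, the other chain of that receptor, which also serves interleukin 10, changed by 1.48 and 2.16. At 16 against 8 weeks Il10rb passed only in some fits, among them that without 8-week replicate 3, at 0.53, adjusted p = 0.00272.

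Of 8 inhibitors tested, 3 were higher at each time, Socs1, Samhd1 and Ptpn6, and 1, Ptpn11, was lower at 8 weeks. The 3 of 8, or 37.5%, lie near the 30.8% and 29.4% of all genes tested that passed as higher. Socs1, which blocks Jak kinases, changed by 1.41 and 1.53, and Samhd1, which limits the nucleotides available to viruses, by 1.25 and 1.34. Of 17 genes of interferon induction, 11 were higher and 2, Mavs and Trim25, lower at 8 weeks, and 10 were higher and 1, Mavs, lower at 16 weeks. The shares passing as higher were 64.7% and 58.8%. Irf8, a factor of macrophages and dendritic cells, had 6.80 to 10.8 CPM in chow livers, 22.8 to 49.3 in 8-week livers and 28.9 to 46.6 in 16-week livers, and changed by 1.95 and 2.11. Aim2, a cytosolic DNA sensor, changed by 1.86 and 2.51, and Tmem173, which encodes STING, by 1.82 and 2.37. At 16 against 8 weeks Aim2 passed only in some fits, among them that without 8-week replicate 3, at 0.51, adjusted p = 0.0279. Mavs, the mitochondrial adaptor of RIG-I and MDA5, fell by 1.02 ± 0.19 and 1.33 ± 0.19, adjusted p = 0.000186 and 5.5e-06. Tmem173, Mavs and the genes that are only named as part of a count of 5 or fewer lie outside the rule for named genes and were picked after their values were seen. Irf3, the factor that starts interferon beta transcription, changed by 0.62 at 8 weeks, adjusted p = 0.0257, and by -0.04 at 16 weeks, and fell by 0.66 at 16 against 8 weeks, adjusted p = 0.0209. Without 8-week replicate 3 those changes of Irf3 were 0.33 at 8 weeks and -0.37 at 16 against 8 weeks, adjusted p = 0.0131 and 0.00651, and the 8-week call was lost without chow replicate 1, adjusted p = 0.0601. The 16-week change of Irf3 was 0.49 with total-count scaling.

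Of 57 further interferon-stimulated genes tested, 45 were higher and 1, Rnf213, lower at 8 weeks, and 39 were higher and 2, Ifitm2 and Lgals9, lower at 16 weeks. The median changes were 1.03 and 1.14. The shares passing as higher were 78.9% and 68.4%, against 30.8% and 29.4% of all genes tested. Slfn2, which controls T cell and monocyte quiescence, changed by 3.04 and 2.78, and by 2.54 at 8 weeks without 8-week replicate 3. Apol9b changed by 1.27 at 8 weeks, adjusted p = 0.0374, a call lost without 8-week replicate 3 at 0.39, adjusted p = 0.121, and without any 1 of the 5 chow livers, adjusted p = 0.0522 to 0.0736. Of 14 chemokine and antigen-processing targets of interferon gamma, 12 were higher at 8 weeks and 8 at 16 weeks, or 85.7% and 57.1%. Cxcl10, a chemokine that draws T cells, had 2.70 to 4.35 CPM in chow livers, 1.46 to 35.5 in 8-week livers and 11.8 to 19.7 in 16-week livers, and changed by 2.47 ± 0.44 and 2.15 ± 0.43. Nos2, inducible nitric oxide synthase, was near the detection limit in chow livers, with 14 counts over the 5, against 611 in the 8-week and 473 in the 16-week livers. It changed by 4.62 ± 0.76 and 3.64 ± 0.74. Without 8-week replicate 3 it passed as lower at 16 against 8 weeks, at -1.15, adjusted p = 0.0363. Psmb10, a subunit of the immunoproteasome, changed by 1.77 at 8 weeks, adjusted p = 0.00677, and by 0.58 at 16 weeks, adjusted p = 0.328. Without 8-week replicate 3 its 8-week change was 0.88, adjusted p = 0.00128, and its 16-week change of 0.58 passed, adjusted p = 0.0157. Its fall of 1.19 at 16 against 8 weeks, adjusted p = 0.0473, was then -0.30, adjusted p = 0.227.

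**Figure D5:**
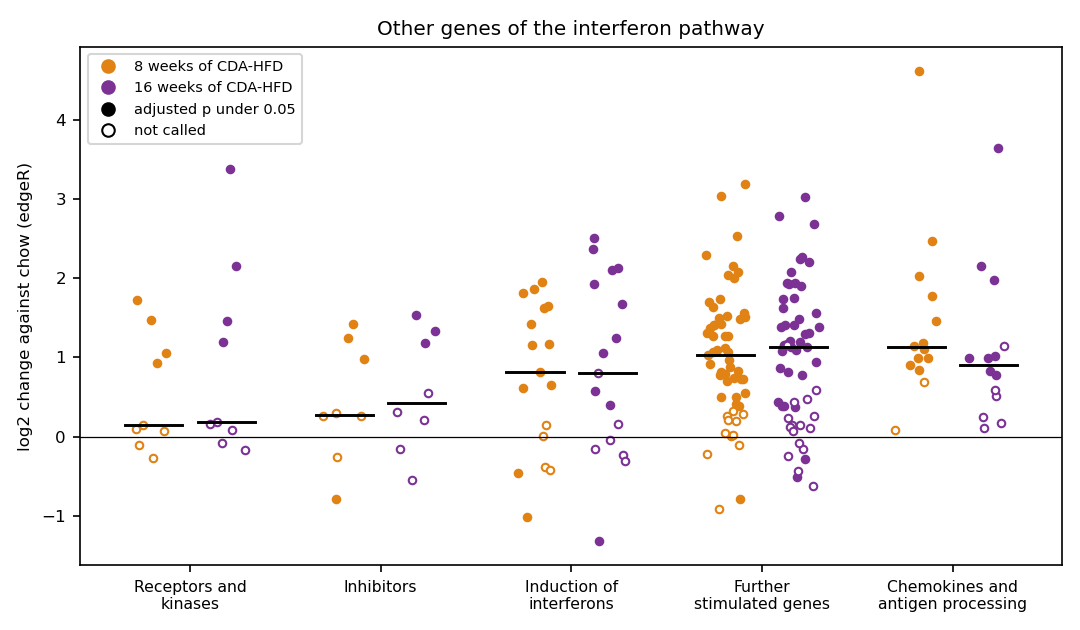
Log2 change against chow at 8 weeks (orange) and 16 weeks (purple) of CDA-HFD for the tested genes of 5 further lists of the interferon pathway, with filled points at an adjusted p under 0.05 and black lines at the list medians. The highest point among the receptors is Ifnlr1 at 16 weeks (3.38), the highest among the chemokine and antigen-processing genes is Nos2 at 8 weeks (4.62), and the lowest induction gene is Mavs at 16 weeks.

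Transcripts of several other cell types moved with these genes. Over all genes tested, 30.8% passed as higher and 20.5% as lower at 8 weeks, and 29.4% and 22.5% at 16 weeks. Of 10 macrophage markers, 10 passed as higher at 8 weeks and 7 at 16 weeks, and their sum was 364 to 496 CPM in chow livers, 1388 to 6495 in 8-week livers and 1810 to 2830 in 16-week livers. Of 12 T and natural killer cell markers, 11 were higher and 1, Cd4, lower at each time, with sums of 8.203 to 10.6, 10.8 to 75.7 and 17.7 to 55.7 CPM. Of 8 markers of plasmacytoid dendritic cells, which are specialised in type I interferon production, 6 were higher at 8 weeks and 5 at 16 weeks, with sums of 21.95 to 30.6, 29.1 to 213 and 74.2 to 223.7 CPM. Ly6d, which is also made outside those cells, had the highest median of the 8 in both diet groups, with medians of 0.846, 36.98 and 82.5 CPM at chow, 8 and 16 weeks, while Tcf4 had medians of 20.4, 17.3 and 23.2 CPM and the highest 8-week values of Klk1 and Cox6a2 were 62.9 and 61.8 CPM. Siglech, which defines those cells best in mouse, had medians of 0.463, 2.42 and 3.21 CPM. Of 5 bile duct markers, 4 were higher at 8 weeks and 5 at 16 weeks, with median sums of 57.4, 208 and 1016 CPM. Of 6 stellate cell markers, 4 were higher at 8 weeks and 3 at 16 weeks, with median sums of 302.6, 760.2 and 979 CPM. Of 8 hepatocyte markers, 2 were higher and 3 lower at 8 weeks, and 0 were higher and 5 lower at 16 weeks. In whole liver, more cells of a type and more RNA per cell cannot be told apart, and the part of these cells in the rise of the interferon-stimulated genes was not tested.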

How the data were processed

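Stranded total RNA libraries (RNeasy extraction, TruSeq Stranded Total RNA kit, per the labels' protocols) of 21 mouse livers were deposited as raw counts per Ensembl gene; GRCm38 is the build in the submitters' processing notes. The aligner, counter and annotation were not given in the sources used here. Those deposited counts were used as they stand: 52636 genes, of which 99.56% matched a symbol, with no column left unmapped. Exon lengths, overlaps and coordinates came from GENCODE M21, and promoter sequences from RefSeq (GRCm38.p6).

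Counts were filtered by group with edgeR 4.0.16, scaled by TMM and tested by the quasi-likelihood test in 1 fit of all 21 libraries with 3 contrasts. The 17104 genes tested hold 99.961% of counts, and p-values were adjusted over all of them. DESeq2 1.42.0 and the other alternatives are described at the end. On simulated counts for 16910 genes with 5 against 8 libraries, 90.9% of 66 genes changed 4-fold were recovered for 8 weeks against chow. Of 67 changed 2-fold, 17.9% were recovered, so a gene that missed the threshold may have changed. The simulation left 16713 of the genes unchanged and gave all genes 1 spread. In the data far more genes passed, so these shares do not give the power of the test on the data. Detection limits cover counting error only, and standard errors come from the fit over libraries.

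The 39 genes, the role groups, the pathway and marker lists and the rule for named genes (per role group the genes of highest mean CPM and of largest change at 8 weeks and at 16 against 8 weeks, and every gene called lower) were chosen with earlier results of these data known. The description by exon length was added after the values were seen. Replicates are numbered in the order of the labels. 1 gene of the pathway is not reported here.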

Additional observations from a re-analysis of the deposited data

Results flagged for a closer look

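Within each diet group, a gene is listed here where its highest or lowest liver lay farther from the next than Dixon's 95% limit allows. Of 117 gene and group pairs tested, 18 did, where chance gives about 1 in 20 (these genes are not independent). In 8-week replicate 3, 7 were the highest: Irf7 at 525 CPM, Oasl1 at 211, Ifi27l2a at 281, Ifi35 at 149, Ifit3 at 50.1, Oas1a at 43.4 and Mx2 at 13.8. In 16-week replicate 8, 7 were the highest: Oasl2 at 62.8 CPM, Irf9 at 48.8, Rtp4 at 38.1, Trim30a at 37.3, Ifit2 at 27.8, Ifi44 at 25.8 and Oas3 at 25. The remaining 4 were the lowest of their groups: Stat2 at 46.7 CPM in 8-week replicate 2, Dhx58 at 16.3 CPM in 8-week replicate 6, Bst2 at 119 CPM in chow replicate 1 and Isg15 at 5.59 CPM in chow replicate 4.

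Oasl2, at 0.55 on the log2 scale, and Mx2, at -0.64, passed the test of 16 against 8 weeks itself, where diet time and age cannot be told apart. The call was lost for Oasl2 without 16-week replicate 8. For Mx2 it was lost with total-count scaling and without 8-week replicates 3, 4 and 5.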

How the results depend on the processing

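No paired analysis was possible because the replicate numbers name libraries in order and pair no livers. Over 30 alternatives (scaling, filters, DESeq2, the 2 groups alone, libraries left out), the call for the diet against chow did not change for 32 of 39 genes at 8 weeks and for 24 at 16 weeks, and that between the diet times for 24. Leaving out 1 library at a time, 27 to 30, 23 to 30 and 1 to 8 genes passed in those comparisons. Their median changes were 0.829 to 1.04, 0.835 to 0.966 and -0.10 to 0.01; the pathway lists gave 72 to 83, 65 to 78 and 8 to 27 calls; and all genes gave 7563 to 9748, 8099 to 11308 and 2248 to 5132 calls.

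Total-count scaling gave median changes of 1.42 at 16 weeks and 0.387 at 16 against 8 weeks, where the medians of all genes were 0.558 and 0.377, with 8 members and 37 pathway genes passing at 16 against 8 weeks. It also turned round Bst2 (0.493) and Parp9 (0.284) at 16 weeks, the inducer Irf3 (0.486) at 16 weeks and Usp18 (0.45) at 16 against 8 weeks; Bst2, Parp9 and Irf3 then lay below the median of all genes. At 16 against 8 weeks, the members that passed numbered 5 with DESeq2 and 4 without the 7 libraries highest in squamous or pancreas transcripts. Pathway calls there were 10 with no filter, 8 with the 2 groups alone and 7 without 8-week replicates 3, 4 and 5, and all genes gave 2226 calls with the 2 groups alone, a fit with fewer libraries. Without those 3 replicates the 8-week median was 0.842. The stricter response element left 10 promoters of 17. For the other changes the cause was not tested.

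With the libraries of 8 against 5, 1.5-fold and 2-fold changes were mostly missed on simulated counts, most of whose genes were unchanged. In the data smaller changes did pass, such as Dhx58 at 0.57 and Ifit1 at 0.81 on the log2 scale at 8 weeks. The simulated shares thus do not give the power of the test on these data. Of the interferon genes listed, 17 were below detection.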
